A study of Homo sapiens with 4 samples.

Results

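SKLMS1 and SKN, set against RKN and SKUT1, shared a set of 130 genes that separated the 4 leiomyosarcoma lines pair against pair. Of these, 72 genes were higher in both SKLMS1 and SKN than in either RKN or SKUT1, which is 0.525% of the 13713 genes measured, and 58 genes were lower in both, which is 0.423%. A gene was chosen by its deposited FPKM (fragments scaled to transcript length and library size) in the 4 lines. The lower value of one pair had to exceed the higher value of the other pair by a gap of 2 or more on the log2(FPKM + 1) scale, which is 4-fold, and 1 line at least had to reach an FPKM of 1. Because these values chose the genes, the separation itself is a description and carries no test.

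Leiomyosarcoma is a malignant tumour with features of smooth muscle, and all 4 lines are established human cell lines labelled as leiomyosarcoma. SKLMS1, SKN, RKN and SKUT1 were grown untreated in the same serum-containing medium, and poly(A) RNA of each was sequenced once, so each group is 1 line with 1 library. The 2 lines of a pair are not replicates of each other, and no p-value or standard error can be given for any difference. All values below are deposited FPKM unless a log2 scale is named. In bulk RNA of this kind, fewer cells with a transcript and less transcript per cell cannot be told apart.

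PAX8 is a paired-box transcription factor of the developing kidney, thyroid and Mullerian duct, the embryonic source of the uterus. KRT8 is the type II keratin of simple epithelia and forms filaments with KRT18. CDKN2A encodes p16INK4a, an inhibitor of the cyclin D kinases, and from another first exon p14ARF, which protects p53 from MDM2, and its neighbour CDKN2B encodes the related inhibitor p15INK4b. These genes stood on opposite sides here. PAX8 was at 48.1 in SKLMS1 and 195 in SKN, against 1.08 in RKN and 2.14 in SKUT1. KRT8 was at 268 in SKLMS1 and 265 in SKN, against 1.99 in RKN and 9.42 in SKUT1. CDKN2A was at 0.549 in SKLMS1 and 0.125 in SKN, against 326 in RKN and 16.4 in SKUT1. The rule itself requires that the pairs do not overlap, and the gaps of the 3 genes were 3.97, 4.67 and 3.49 on the log2 scale.

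The start regions of PAX8, CDKN2A and CDKN2B are shown because a single FPKM per gene pools all starts of that gene, and CDKN2A has 2 of them in the RefSeq table. Each window runs from 250 bases before to 50 after an annotated start, taken from RefSeq on GRCh38.p14 and not from hg19, the build named for the deposited values. Capitals mark each CG dinucleotide, and all 4 windows lie on the minus strand. The PAX8 window is chr2:113278872-113279171 and holds 13 CG dinucleotides. The upstream CDKN2A window, chr9:21995275-21995574, is the start of the transcript that encodes p14ARF and holds 28, and the downstream one, chr9:21974808-21975107, is the start of the p16INK4a transcript and holds 26. The CDKN2B window is chr9:22009256-22009555 and holds 25.
PAX8: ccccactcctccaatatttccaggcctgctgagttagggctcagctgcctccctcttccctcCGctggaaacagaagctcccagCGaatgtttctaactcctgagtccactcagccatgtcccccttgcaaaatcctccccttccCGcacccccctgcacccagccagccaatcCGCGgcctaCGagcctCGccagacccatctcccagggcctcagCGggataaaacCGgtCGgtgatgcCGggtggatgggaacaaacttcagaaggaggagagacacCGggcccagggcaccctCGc
CDKN2A, upstream start: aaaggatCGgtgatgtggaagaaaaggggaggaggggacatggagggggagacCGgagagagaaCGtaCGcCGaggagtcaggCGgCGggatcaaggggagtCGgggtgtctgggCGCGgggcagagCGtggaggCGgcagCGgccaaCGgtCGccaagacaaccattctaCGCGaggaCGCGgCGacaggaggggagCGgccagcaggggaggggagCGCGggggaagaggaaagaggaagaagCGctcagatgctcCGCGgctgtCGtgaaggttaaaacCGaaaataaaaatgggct
CDKN2A, downstream start: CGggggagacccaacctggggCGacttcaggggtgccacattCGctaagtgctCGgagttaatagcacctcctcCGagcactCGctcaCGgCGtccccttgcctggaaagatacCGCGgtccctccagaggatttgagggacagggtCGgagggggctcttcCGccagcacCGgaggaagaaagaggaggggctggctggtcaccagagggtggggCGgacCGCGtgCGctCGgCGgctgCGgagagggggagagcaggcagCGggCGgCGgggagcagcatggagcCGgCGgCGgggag
CDKN2B: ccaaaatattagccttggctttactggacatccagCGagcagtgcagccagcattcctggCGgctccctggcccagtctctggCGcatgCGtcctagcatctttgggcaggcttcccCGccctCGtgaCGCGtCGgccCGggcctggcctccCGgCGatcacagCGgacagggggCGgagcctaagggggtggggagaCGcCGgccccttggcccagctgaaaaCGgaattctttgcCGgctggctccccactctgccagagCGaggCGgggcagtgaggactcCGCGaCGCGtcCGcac
The FPKM of CDKN2A does not say which of its starts was used in any line.

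The estimated read totals of SKLMS1, SKN and SKUT1 were 91.3%, 75.3% and 72.6% of that of RKN, from the steps of the low values, and absolute depth is not given. Between 2.72% (SKLMS1) and 4.17% (SKN) of the measured genes were listed at exactly 0 in a line. RPS28, which encodes a protein of every ribosome, was at 211 in SKN and 0.370 in SKLMS1, against 146 in RKN, and was listed at 0 in SKUT1. A listed 0 can therefore be a failed estimate, and no fold is given against one. A low value above 0, as for RPS28 in SKLMS1, may also be a failed estimate. Of the 130 genes, 15 were short or unplaced RNAs, which a poly(A) library measures poorly, 12 of them among the higher and 3 among the lower genes. The other 115 comprised 60 higher and 55 lower genes, and the counts that follow refer to these 115.

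The gap was 3 or more for 13 of the 60 higher genes and for 14 of the 55 lower genes, and its median was 2.50 and 2.74. In the higher set, 31 genes were under an FPKM of 1 in both RKN and SKUT1, and 12 had an FPKM of 1 or more in all 4 lines. In the lower set, 35 genes were under 1 in both SKLMS1 and SKN, and 13 were at 1 or more in all 4 lines. An FPKM of 10 or more in both lines of the higher pair was reached by 35 higher and 30 lower genes. Listed zeros were uneven, since 10 higher genes were listed at 0 in RKN or SKUT1, and 15 lower genes in SKLMS1 or SKN, all 15 of these in SKN and 1 of them also in SKLMS1. With genes listed at 0 in any line left out, the full counts were 52 higher and 40 lower, which still included genes at low values above 0.

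The number of genes depends on the pseudocount, which moves the gap of genes near 0. With 0.1 in place of 1 it was 173 higher and 161 lower genes, and with 5 it was 21 and 17. Each line limits the sets, as a gene must pass in all 4. Without SKLMS1 there were 302 higher and 171 lower genes, without SKN 299 and 124, without RKN 220 and 685, and without SKUT1 346 and 282.

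**Figure D1:**
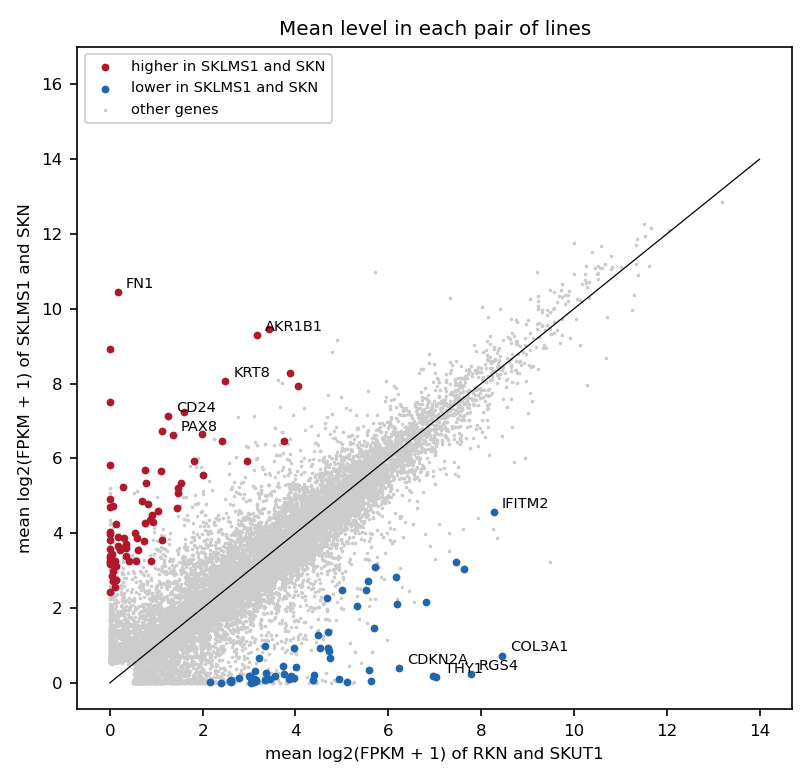
Mean log2(FPKM + 1) of SKLMS1 and SKN (vertical axis) against that of RKN and SKUT1 (horizontal axis) for the 13713 measured genes. The 72 higher genes (red, short RNAs included) lie above the line of equal levels and the 58 lower genes (blue) below it, with other genes in grey.

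Genes of the extracellular matrix stood on both sides, and FN1 led the higher set. FN1, fibronectin, was at 651 in SKLMS1 and 2960.4 in SKN, against 0.266 in RKN, with a listed 0 in SKUT1. It had the widest gap of these 115 genes, 9.01 on the log2 scale, but its value in SKUT1 is a listed 0. Another matrix gene was listed at 0 in that line beside a partner at a high level, since COL1A1 was at 939 in SKLMS1 and 0.447 in SKN, against 7.06 in RKN, with a listed 0 in SKUT1, while COL1A2, the other chain of collagen I, was at 77.5 in SKLMS1 and 0.113 in SKN, against 98.3 in RKN and 5096 in SKUT1. The level of FN1 in SKUT1 is therefore uncertain. COL7A1, the collagen of anchoring fibrils below epithelia, was at 68.7 in SKLMS1 and 35.8 in SKN, against 0.277 in RKN and 2.65 in SKUT1. LAMA5, a laminin chain of epithelial basement membranes, was at 19.6 in SKLMS1 and 55.2 in SKN, against 1.92 in RKN and 1.63 in SKUT1. AGRN, the heparan sulfate proteoglycan agrin, was at 83.5 in SKLMS1 and 92.0 in SKN, against 7.83 in RKN and 19.8 in SKUT1. COL7A1 and LAMA5 were low in both RKN and SKUT1, while AGRN was present in all 4 lines and passed the rule narrowly, with a gap of 2.02.

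Among receptors that bind matrix, 1 of 18 measured integrin genes, ITGB3, was in the higher set and 1, ITGA7, in the lower. Over all measured genes the shares were 0.525% and 0.423%. ITGB3, which pairs with alpha v to bind fibronectin and vitronectin, was at 25.6 in SKLMS1 and 23.8 in SKN, against 0.202 in RKN and 5.15 in SKUT1. Its gap of 2.01 was just past the threshold, and it was 1.999 with median-of-ratios scaling and 1.502 with a pseudocount of 5. The partner chains of fibronectin receptors did not separate the pairs. ITGAV was at 45.4 in SKLMS1 and 22.3 in SKN, against 6.75 in RKN and 143 in SKUT1. ITGA5 was at 52.2 in SKLMS1 and 93.9 in SKN, against 12.6 in RKN and 280.0 in SKUT1, and ITGB1 was at 442 in SKLMS1 and 237 in SKN, against 129 in RKN and 1240.2 in SKUT1. For these 3 chains SKUT1 was the highest line and RKN the lowest.

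The following surface proteins of the higher set were grouped after their values were seen, and none of 20 measured cadherins and protocadherins met the rule. Over all measured genes 0.525% were higher and 0.423% lower. L1CAM, an adhesion molecule of growing axons, was at 34.7 in SKLMS1 and 74.3 in SKN, against 1.16 in RKN and 0.323 in SKUT1. NTNG1, the membrane-anchored netrin-G1, was at 18.2 in SKLMS1 and 36.1 in SKN, against 0.0543 in RKN and 0.0449 in SKUT1. NRP2, a receptor shared by semaphorins and VEGFs, was at 29.1 in SKLMS1 and 45.2 in SKN, against 0.0151 in RKN and 6.46 in SKUT1. The rule requires that the pairs do not overlap in any of them, but NRP2 was detectable in SKUT1 and almost absent from RKN. GPR56, an adhesion G protein-coupled receptor for which collagen III is a known ligand, was at 70.5 in SKLMS1 and 155 in SKN, against 1.24 in RKN and 1.12 in SKUT1. COL3A1, which encodes collagen III, ran the other way and is described below. LRRN4 was at 20.2 in SKLMS1 and 10.6 in SKN, against 0.0215 in RKN, with a listed 0 in SKUT1, and IGSF3, an immunoglobulin-domain protein, was at least 5.64 in SKLMS1 and SKN and at most 0.470 in RKN and SKUT1.

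Of 13 measured keratin genes, KRT8 alone met the rule. In pair means, 4 of the 13 were higher by 1 or more on the log2 scale and 6 lower by 1 or more. Over all measured genes the shares were 9.39% and 9.74%, and the list median was -0.995. Several of the lower ones were highest in SKUT1. KRT14 was at 0.0227 in SKLMS1 with a listed 0 in SKN, against 0.0414 in RKN and 474 in SKUT1. KRT7 was at 5.25 in SKLMS1 and 6.05 in SKN, against 0.257 in RKN and 141 in SKUT1. KRT8 has many processed pseudogenes, so reads may have been split among copies. Its partner KRT18 did not follow it and was at 42.8 in SKLMS1 and 283 in SKN, against 7.84 in RKN and 184 in SKUT1. KRT19 was at 146 in SKLMS1 and 0.342 in SKN, against 44.6 in RKN and 93.4 in SKUT1. Of 21 measured epithelial junction and identity genes, 3 were in the higher set and none in the lower, beside 0.525% and 0.423% of all measured genes. They were CLDN1, a tight junction claudin, DSG2, a desmosomal cadherin, and CD24, a surface glycoprotein. With a pseudocount of 5 or a gap of 3 the list had 0 higher members. CLDN1 was at 13.9 in SKLMS1 and 109 in SKN, against 1.47 in RKN and 0.189 in SKUT1. DSG2 was at 28.8 in SKLMS1 and 18.95 in SKN, against 0.0815 in RKN and 2.93 in SKUT1. CD24 was at 1079 in SKLMS1 and 17.1 in SKN, against 1.16 in RKN and 1.65 in SKUT1. CLDN1 was several times higher in SKN than in SKLMS1, and CD24 ran the other way inside the pair. RIPK4, a kinase of keratinocyte differentiation, was at 33.6 in SKLMS1 and 11.1 in SKN, against 0.0969 in RKN and 2.00 in SKUT1. The other 18 did not separate the pairs by the rule. Some were high in single lines, as DSP, desmoplakin, was at 10.9 in SKLMS1 and 0.260 in SKN, against 0.820 in RKN and 201 in SKUT1, and F11R, a junctional adhesion molecule, was at 3.09 in SKLMS1 and 24.9 in SKN, against 3.03 in RKN and 0.124 in SKUT1. EPCAM was at 1.80 in SKLMS1 and 0.208 in SKN, against 0.372 in RKN and 0.432 in SKUT1, CDH1, E-cadherin, was at most 1.20 (SKUT1), and ESRP1 was at most 0.0682 (SKLMS1). No cell type is assigned to the pair.

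**Figure D2:**
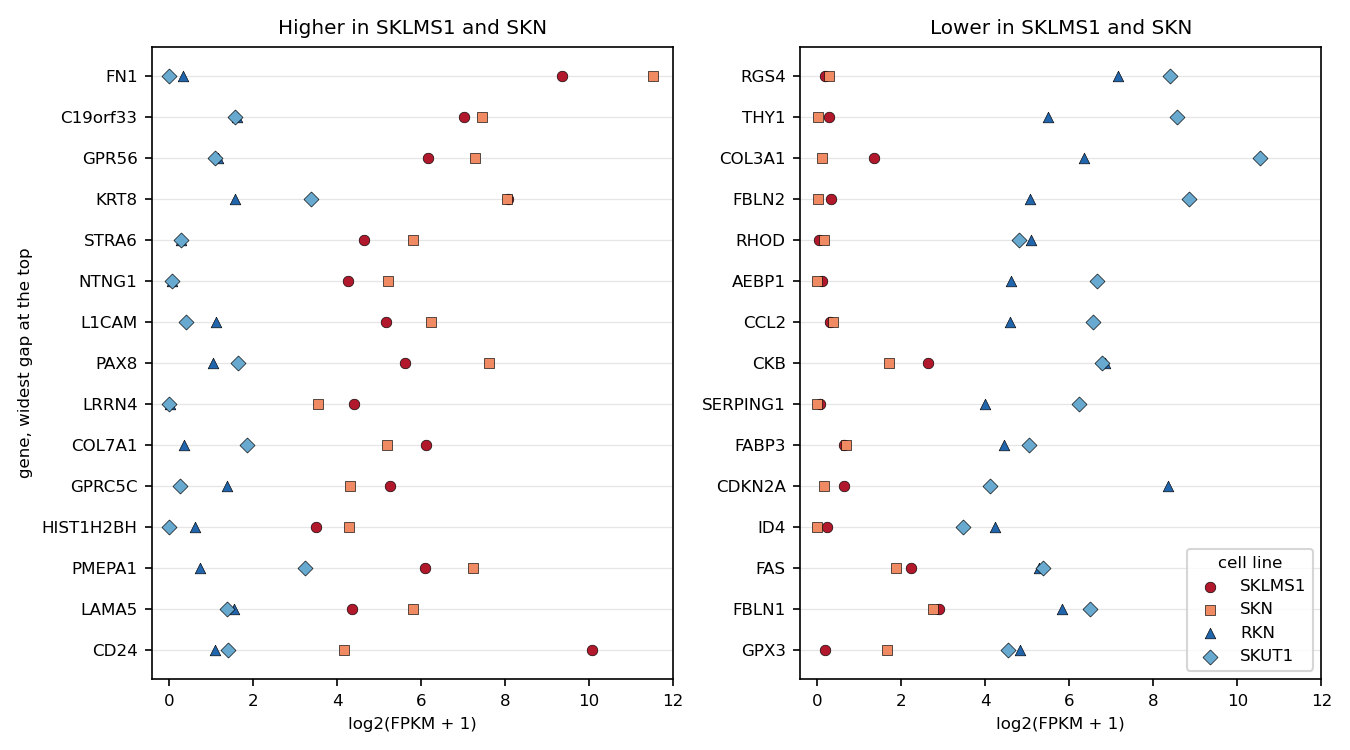
Levels on the log2(FPKM + 1) scale of the 15 genes with the widest gap in each direction, among genes whose FPKM reached 10 in both lines of the higher pair, with short RNAs left out. Each point is 1 library. SKLMS1 and SKN (red, orange) lie to the right of RKN and SKUT1 (blue, light blue) in the left panel and to their left in the right panel.

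Transcription factors of the higher set other than PAX8 included SALL1, HOXA3, BHLHE41 and PPARG. SALL1, a zinc finger factor of kidney development, was at 6.59 in SKLMS1 and 4.73 in SKN, against 0.116 in SKUT1, with a listed 0 in RKN. PAX8 and SALL1 were the 2 higher genes among 20 measured Mullerian, renal and uterine factors, of which none was lower by the rule. The shares over all measured genes were 0.525% higher and 0.423% lower. WT1, a factor of kidney and uterine development, cut across the pairs at 4.67 in SKN with a listed 0 in SKLMS1, against 4.67 in RKN and 0.0735 in SKUT1. HOXA3, a homeobox gene, was at 11.5 in SKLMS1 and 6.22 in SKN, against 0.281 in RKN and 0.695 in SKUT1, and was the only one of 34 measured HOX genes that met the rule. BHLHE41, a transcriptional repressor of the circadian clock, was at 12.5 in SKLMS1 and 61.0 in SKN, against 1.63 in SKUT1, with a listed 0 in RKN. PPARG, the nuclear receptor of fat cell formation, was at 19.9 in SKLMS1 and 6.47 in SKN, against 0.0184 in RKN and 0.532 in SKUT1.

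Secreted ligands stood on both sides, and those of the higher set were LIF, WNT7B, TGFA and UCN2. LIF, a cytokine of the interleukin 6 family, was at 18.4 in SKLMS1 and 83.8 in SKN, against 1.46 in RKN and 2.41 in SKUT1. WNT7B, a secreted WNT ligand, was at 9.62 in SKLMS1 and 14.2 in SKN, against 0.208 in RKN and 0.0661 in SKUT1. TGFA, a ligand of the EGF receptor, was at 7.13 in SKLMS1 and 6.68 in SKN, against 0.0433 in RKN and 0.0497 in SKUT1. UCN2, the stress peptide urocortin 2, was at 9.61 in SKLMS1 and 12.1 in SKN, against 0.162 in RKN and 0.160 in SKUT1. TGFA, WNT7B and UCN2 were under an FPKM of 1 in both RKN and SKUT1. TGFA was the only higher gene of 33 measured ligands of receptor tyrosine kinases, WNT7B of 34 WNT pathway genes, and LIF of 32 cytokine genes, among which the chemokine CCL2 was lower by the rule. These counts stand beside 0.525% higher and 0.423% lower of all measured genes. Among receptors and signalling proteins, STRA6, the membrane receptor that takes up retinol, was at 23.9 in SKLMS1 and 55.3 in SKN, against 0.228 in RKN and 0.213 in SKUT1. IL31RA, a cytokine receptor chain, was at 3.76 in SKLMS1 and 14.8 in SKN, against 0.156 in RKN and 0.0333 in SKUT1. GPRC5C, an orphan receptor, was at least 18.8 in SKLMS1 and SKN and at most 1.60 in RKN and SKUT1. PMEPA1, a TGF-beta target that restrains SMAD signalling, was at 67.1 in SKLMS1 and 150.3 in SKN, against 0.672 in RKN and 8.43 in SKUT1. RKN was the lowest line for PMEPA1. BMF, a pro-apoptotic BH3-only protein, was at 16.3 in SKLMS1 and 10.0 in SKN, against 0.743 in RKN and 0.595 in SKUT1.

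MLPH, SYTL2 and UNC13D, effectors of the vesicle GTPase RAB27A, were all in the higher set. UNC13D, a priming factor of granule release, was at 6.33 in SKLMS1 and 49.1 in SKN, against 0.0708 in RKN and 0.117 in SKUT1. SYTL2, a synaptotagmin-like tether, was at 7.88 in SKLMS1 and 27.7 in SKN, against 0.114 in RKN and 0.924 in SKUT1. MLPH, melanophilin, which links RAB27A to myosin Va, was at 6.72 in SKLMS1 and 16.6 in SKN, against 0.410 in RKN and 0.632 in SKUT1. This group was assembled after the values were seen, so its count is not evidence of a shared pattern. Other members of the same family were less apart or at low levels. SYTL3 was at 8.24 in SKLMS1 and 5.91 in SKN, against 0.499 in RKN and 2.28 in SKUT1, a gap of 1.08. RAB27A itself was at 12.5 in SKLMS1 and 10.9 in SKN, against 3.09 in RKN and 8.58 in SKUT1. SYTL1, SYTL4, SYTL5, MYRIP, EXPH5 and RAB27B were each under an FPKM of 2 in every line. DENND2A, an activator of RAB GTPases, was at least 12.9 in SKLMS1 and SKN and at most 1.83 in RKN and SKUT1.

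Enzymes and transporters of the higher set included AKR1B1, aldose reductase, which reduces glucose to sorbitol. AKR1B1 was at 1084 in SKLMS1 and 364 in SKN, against 0.0746 in RKN and 73.7 in SKUT1. SKUT1 held an intermediate level and RKN was near 0. SMOX, spermine oxidase, was at 61.8 in SKLMS1 and 58.8 in SKN, against 4.76 in RKN and 9.59 in SKUT1. CA2, a carbonic anhydrase, was at 5.22 in SKLMS1 and 13.9 in SKN, against 0.168 in SKUT1, with a listed 0 in RKN. UGT2B7, a glucuronosyltransferase of a family with near-identical members, was at 17.6 in SKLMS1 and 3.72 in SKN, with a listed 0 in RKN and SKUT1. ABCA1, which exports cholesterol, was at 21.9 in SKLMS1 and 6.54 in SKN, against 0.0115 in RKN and 0.622 in SKUT1. KCNK3, a background potassium channel, was at 6.94 in SKLMS1 and 4.73 in SKN, against 0.188 in RKN and 0.0216 in SKUT1, and was the only one of 31 measured ion channels and pumps that met the rule. Over all measured genes 0.525% were higher and 0.423% lower. S100A2, a calcium-binding protein, was at 318 in SKLMS1 and 303 in SKN, against 43.8 in RKN and 3.89 in SKUT1. RKN held an intermediate level of S100A2. C19orf33 was at 129 in SKLMS1 and 173 in SKN, against 2.06 in RKN and 1.98 in SKUT1, TUBA4A, an alpha-tubulin with close paralogs, was at 133 in SKLMS1 and 56.5 in SKN, against 2.10 in RKN and 8.25 in SKUT1, and HOMER2, a scaffold protein, was at 58.6 in SKLMS1 and 35.6 in SKN, against 4.48 in RKN and 1.94 in SKUT1.

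The remaining higher genes lay nearer the threshold or at lower levels. TSPAN13 and TSPAN15 encode tetraspanins, the first at least 49.9 in SKLMS1 and SKN and at most 9.72 in RKN and SKUT1, the other at least 7.36 in SKLMS1 and SKN and at most 0.992 in RKN and SKUT1. LAT, an adaptor of T cell receptor signalling, was at least 10.8 in SKLMS1 and SKN and at most 1.20 in RKN and SKUT1. AFAP1L2, an adaptor of SRC signalling, was at least 9.03 in SKLMS1 and SKN and at most 0.228 in RKN and SKUT1. FIBCD1, a receptor for acetylated sugars, was at least 10.6 in SKLMS1 and SKN and at most 1.04 in RKN and SKUT1. SIPA1L2, a GTPase-activating protein for RAP, was at least 6.88 in SKLMS1 and SKN and at most 0.585 in RKN and SKUT1. PLEKHA5 was at least 15.7 in SKLMS1 and SKN and at most 1.99 in RKN and SKUT1. SHISA9, an auxiliary subunit of AMPA receptors, was at 19 in SKLMS1 and 3.64 in SKN, with a listed 0 in RKN and SKUT1, and DCDC2, a microtubule-binding protein, was at 35.5 in SKLMS1 and 6.36 in SKN, with a listed 0 in RKN and SKUT1. BTBD11, ELFN2, IGFN1, HHIPL2, C14orf105 and the noncoding RNA gene LINC00263 completed the set with FPKM between 3.64 and 20.3 in SKLMS1 and SKN and at most 1.36 in RKN and SKUT1. HIST1H2BH, a histone gene whose main transcript lacks a poly(A) tail, was at 10.3 in SKLMS1 and 18.4 in SKN, against 0.543 in RKN, with a listed 0 in SKUT1.

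Of 10 measured genes of chromosome 9p21, CDKN2A and CDKN2B were lower by the rule and none was higher, beside 0.423% and 0.525% of all measured genes. CDKN2B was at 0.00887 in SKLMS1 and 0.0108 in SKN, against 6.41 in RKN and 4.04 in SKUT1. It lies next to CDKN2A, and the rule requires the pairs to be apart for both. RKN and SKUT1 differed from each other in CDKN2A by 4.23 on the log2 scale, and in CDKN2B by much less. The other 8 genes did not meet the rule, and several were present in both pairs, as KLHL9 was at 15.6 in SKLMS1 and 23.0 in SKN, against 18.2 in RKN and 23.8 in SKUT1. MTAP, of methionine salvage, was at 17.9 in SKN and was listed at 0 in SKLMS1, against 35.9 in RKN and 14.6 in SKUT1. DMRTA1 was at 3.88 in SKLMS1 and 1.54 in SKN, against 0.184 in RKN and 0.195 in SKUT1, and so ran the other way. CDKN2B-AS1, an antisense RNA that overlaps CDKN2B, was at 1.37 in SKN and was listed at 0 in SKLMS1, against 1.12 in RKN and 0.207 in SKUT1, and although the library kit keeps strand, the strand setting of the counting is not given in the sources used here. Of 27 measured RB, cyclin and CDK inhibitor genes, none met the rule in either direction. RB1, the target of the cyclin D kinases, was at 11.7 in SKLMS1 and 15.2 in SKN, against 0.752 in RKN and 18.8 in SKUT1, and CCND2, a D-type cyclin, was at 0.0103 in SKLMS1 and 0.392 in SKN, against 11.6 in RKN and 3.24 in SKUT1, a gap of 1.61.

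Of 37 measured fibrillar collagen and matrix genes, 5 were lower in SKLMS1 and SKN by the rule and FN1 alone was higher. Over all measured genes the shares were 0.423% and 0.525%. With genes listed at 0 in any line left out, the list had 5 lower and 0 higher members. Without RKN it had 28 lower and 1 higher, and without SKUT1 5 lower and 8 higher. Its summed FPKM was 4441 in SKLMS1 and 4678 in SKN, against 766 in RKN and 28709.5 in SKUT1. The list as a whole therefore did not separate the pairs, and RKN had the lowest sum. COL3A1, the collagen III of elastic tissues, was at 1.53 in SKLMS1 and 0.0894 in SKN, against 80.6 in RKN and 1498 in SKUT1. COL5A2, a collagen V chain, was at 4.87 in SKLMS1 and 13.8 in SKN, against 97.7 in RKN and 314 in SKUT1. FBLN2, fibulin-2, was at 0.261 in SKLMS1 and 0.0198 in SKN, against 32.5 in RKN and 461 in SKUT1. FBLN1, fibulin-1, was at 6.53 in SKLMS1 and 5.75 in SKN, against 55.7 in RKN and 89.1 in SKUT1. MFAP2, a microfibril protein, was at 5.91 in SKLMS1 and 0.0901 in SKN, against 46.3 in RKN and 55.0 in SKUT1. In COL3A1, COL5A2 and FBLN2, SKUT1 was far above RKN, and RKN in turn was above both SKLMS1 and SKN. In FBLN1 and MFAP2 the levels of RKN and SKUT1 were within 2-fold. Other fibulins did not meet the rule. EFEMP1 was at 5.04 in SKLMS1 and 21.2 in SKN, against 0.0416 in RKN and 977 in SKUT1, FBLN5 was at 0.0401 in SKLMS1 and 0.551 in SKN, against 0.220 in RKN and 143 in SKUT1, and EFEMP2 was at 29.6 in SKLMS1 and 37.0 in SKN, against 28.2 in RKN and 278 in SKUT1. AEBP1, a collagen-binding matrix protein, was at 0.0753 in SKLMS1 with a listed 0 in SKN, against 23.4 in RKN and 100.1 in SKUT1. ECM1, a secreted matrix glycoprotein, missed the rule with a gap of 1.93.

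In pair means, surface genes of fibroblasts and pericytes leaned lower in SKLMS1 and SKN, mostly through SKUT1. Of 18 measured members, THY1 and CSPG4 were lower by the rule and none was higher, beside 0.423% and 0.525% of all measured genes. The median difference of the pair means was -2.61 on the log2 scale, beside -0.04 over all measured genes. THY1, the fibroblast antigen CD90, was at 0.222 in SKLMS1 and 0.0180 in SKN, against 44.1 in RKN and 381 in SKUT1. CSPG4, the pericyte proteoglycan NG2, was at 0.557 in SKLMS1 and 0.185 in SKN, against 9.30 in RKN and 16.1 in SKUT1. FAP was at 0.227 in SKLMS1 and 0.0153 in SKN, against 3.37 in RKN and 82.3 in SKUT1, a gap of 1.83. Other defining markers were genes of single lines, as PDGFRA was at 0.0560 in SKLMS1 and 0.142 in SKN, against 0.0558 in RKN and 136 in SKUT1, and DCN was at 2.88 in SKLMS1 and 0.118 in SKN, against 0.238 in RKN and 1064 in SKUT1. Without RKN 12 members of the list were lower by the rule, and without SKUT1 3 were. The summed FPKM of this list was 3334 in SKLMS1 and 5318 in SKN, against 2834 in RKN and 8925 in SKUT1, so the sums did not separate the pairs. ITGA7, a laminin receptor chain of muscle, was at 0.160 in SKLMS1 and 0.103 in SKN, against 7.21 in RKN and 15.7 in SKUT1. NES, nestin, an intermediate filament of stem and progenitor cells, was at 0.273 in SKLMS1 with a listed 0 in SKN, against 10.3 in RKN and 4.86 in SKUT1.

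Signalling genes held the widest gap of the lower set. RGS4, which shortens signals of G protein-coupled receptors, was at 0.137 in SKLMS1 and 0.217 in SKN, against 141 in RKN and 337 in SKUT1, and its gap of 6.87 was the widest of the lower set. CCL2, the monocyte chemokine, was at 0.240 in SKLMS1 and 0.291 in SKN, against 22.9 in RKN and 94.4 in SKUT1. EPGN, a ligand of the EGF receptor, was at 0.0289 in SKLMS1 with a listed 0 in SKN, against 7.89 in RKN and 7.36 in SKUT1. GAL, the neuropeptide galanin, was at 0.0568 in SKLMS1 and 0.0689 in SKN, against 81.9 in RKN and 4.29 in SKUT1. RKN was far above SKUT1 in GAL, and SKUT1 above RKN in CCL2. ID4, which blocks basic helix-loop-helix factors, was at 0.177 in SKLMS1 with a listed 0 in SKN, against 17.9 in RKN and 10.1 in SKUT1. Its relatives ID2 and ID3 pointed the same way without meeting the rule, with gaps of 1.26 and 1.10, and ID1 was at 593 in SKLMS1 and 70.8 in SKN, against 445 in RKN and 167 in SKUT1. Receptors of the set were S1PR5, a sphingosine phosphate receptor, at most 0.0864 in SKLMS1 and SKN and at least 3.95 in RKN and SKUT1, GPER, an oestrogen-binding receptor, at most 0.106 in SKLMS1 and SKN and at least 4.90 in RKN and SKUT1, and CD97, an adhesion receptor, at most 4.45 in SKLMS1 and SKN and at least 22.0 in RKN and SKUT1. PDE4A, which degrades cyclic AMP, was at most 0.288 in SKLMS1 and SKN and at least 6.91 in RKN and SKUT1, DUSP2, a phosphatase of MAP kinases, at most 0.0439 in SKLMS1 and SKN and at least 3.18 in RKN and SKUT1, and RHOD, a small GTPase of endosomes, at most 0.127 in SKLMS1 and SKN and at least 27.0 in RKN and SKUT1.

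Of 31 measured apoptosis genes and p53 targets, FAS was lower by the rule and BMF, given above, was higher. Over all measured genes the shares were 0.423% lower and 0.525% higher. FAS, the death receptor, was at 3.72 in SKLMS1 and 2.69 in SKN, against 37.9 in RKN and 40.5 in SKUT1. The next genes, of innate immunity and other roles, were grouped after their values were seen. PYCARD, the inflammasome adaptor ASC, was at 0.344 in SKLMS1 with a listed 0 in SKN, against 43.4 in RKN and 8.99 in SKUT1. SERPING1, the inhibitor of complement C1, was at 0.0403 in SKLMS1 with a listed 0 in SKN, against 15.03 in RKN and 73.7 in SKUT1. CFD, complement factor D, was at most 0.851 in SKLMS1 and SKN and at least 7.25 in RKN and SKUT1. SECTM1 was at most 0.219 in SKLMS1 and SKN and at least 8.35 in RKN and SKUT1, and SLFN11, which acts on stalled replication forks, was at 0.807 in SKLMS1 and 1.05 in SKN, against 12.3 in RKN and 17.6 in SKUT1. The caspase that PYCARD recruits did not separate the pairs, with CASP1 at 0.143 in SKLMS1 and 3.92 in SKN, against 0.830 in RKN and 1.41 in SKUT1.

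Interferon response genes gave 3 members of the lower set out of 36 measured, and none of the higher set, beside 0.423% and 0.525% of all measured genes. IFIT1, which binds viral RNA, was at 2.14 in SKLMS1 and 1.07 in SKN, against 34.7 in RKN and 17.9 in SKUT1. IFITM1, which blocks viral entry, was at 4.13 in SKLMS1 and 2.62 in SKN, against 149 in RKN and 34.6 in SKUT1. IFITM2 was at 10.2 in SKLMS1 and 49.6 in SKN, against 319.7 in RKN and 298 in SKUT1. The IFITM genes are close paralogs, so the split of reads among them is uncertain, and IFITM3 was at 119 in SKLMS1 and 289 in SKN, against 408 in RKN and 743 in SKUT1. With a gap of 1 in place of 2, 7 members were lower and 1 higher, or 19.4% and 2.78%, where 1.47% and 1.76% of all measured genes had such a gap. The further lower members were IFI6, IFIT2, IFIT3 and USP18. IFI6 was at 13.0 in SKLMS1 and 10.4 in SKN, against 284 in RKN and 48.8 in SKUT1, and IFIT2 was at 1.12 in SKLMS1 and 0.826 in SKN, against 7.18 in RKN and 10.2 in SKUT1. IFI27 was the gene that ran the other way, at 246 in SKLMS1 and 159.6 in SKN, against 51.3 in RKN and 71.2 in SKUT1. The median difference of the pair means over the list was -0.68 (log2 scale).

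Metabolic and redox genes of the lower set were led by CKB, the creatine kinase of brain and smooth muscle, at 5.23 in SKLMS1 and 2.26 in SKN, against 114 in RKN and 109 in SKUT1. FABP3, which carries fatty acids in muscle, was at 0.546 in SKLMS1 and 0.619 in SKN, against 20.9 in RKN and 31.8 in SKUT1. FADS2, which desaturates fatty acids, was at 4.93 in SKLMS1 and 4.29 in SKN, against 38.2 in RKN and 51.9 in SKUT1. GPX3, a secreted glutathione peroxidase, was at 0.146 in SKLMS1 and 2.18 in SKN, against 27.5 in RKN and 22.4 in SKUT1. In CKB, FABP3, FADS2 and GPX3 alike, RKN and SKUT1 were within 2-fold of each other. PRDX2, a peroxiredoxin with pseudogenes, was at 24.0 in SKLMS1 and 1.72 in SKN, against 290.4 in RKN and 134 in SKUT1, and differed more between SKLMS1 and SKN than between RKN and SKUT1. ALPL, alkaline phosphatase, was at most 0.219 in SKLMS1 and SKN and at least 5.16 in RKN and SKUT1, CPT1C, a brain carnitine palmitoyltransferase, at most 0.412 in SKLMS1 and SKN and at least 7.78 in RKN and SKUT1, and GALM, galactose mutarotase, at most 0.0712 in SKLMS1 and SKN and at least 6.31 in RKN and SKUT1. SESN3, a stress-induced sestrin, was at 0.0355 in SKLMS1 and 0.341 in SKN, against 17.1 in RKN and 9.07 in SKUT1, whereas SESN1 and SESN2 did not separate the pairs. ABCA8, a lipid transporter, was listed at 0 in SKLMS1 and SKN, against 3.32 in RKN and 5.43 in SKUT1.

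The rest of the lower set consisted of genes with neuronal or other roles at lower levels. DLGAP1, a postsynaptic scaffold, was at most 0.0725 in SKLMS1 and SKN and at least 6.46 in RKN and SKUT1. DPYSL4, of axon guidance, was at most 0.103 in SKLMS1 and SKN and at least 7.23 in RKN and SKUT1, NGEF, of ephrin signalling, at most 1.07 in SKLMS1 and SKN and at least 7.74 in RKN and SKUT1, and BEX1 at most 0.148 in SKLMS1 and SKN and at least 5.604 in RKN and SKUT1. NPAS1, a neuronal transcription factor, was at most 0.124 in SKLMS1 and SKN and at least 6.26 in RKN and SKUT1. STAMBPL1, a deubiquitinase, was at most 2.42 in SKLMS1 and SKN and at least 21.01 in RKN and SKUT1, WTIP, a LIM-domain protein, at most 0.666 in SKLMS1 and SKN and at least 10.9 in RKN and SKUT1, and DIRAS1, a RAS-like GTPase, at most 0.538 in SKLMS1 and SKN and at least 7.31 in RKN and SKUT1. SERP2 was at most 0.0562 in SKLMS1 and SKN and at least 4.16 in RKN and SKUT1, and KRTAP2-3, of a multigene family, at most 5.13 in SKLMS1 and SKN and at least 25.9 in RKN and SKUT1. RPL9, a ribosomal protein gene with pseudogenes, was at 5.39 in SKLMS1 and 10.5 in SKN, against 58.4 in RKN and 45.9 in SKUT1, and its gap of 2.03 was the smallest among lower genes whose FPKM reached 10 in both RKN and SKUT1. HIST1H2AC, a histone gene, was at most 6.22 in SKLMS1 and SKN and at least 31.7 in RKN and SKUT1.

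**Figure D3:**
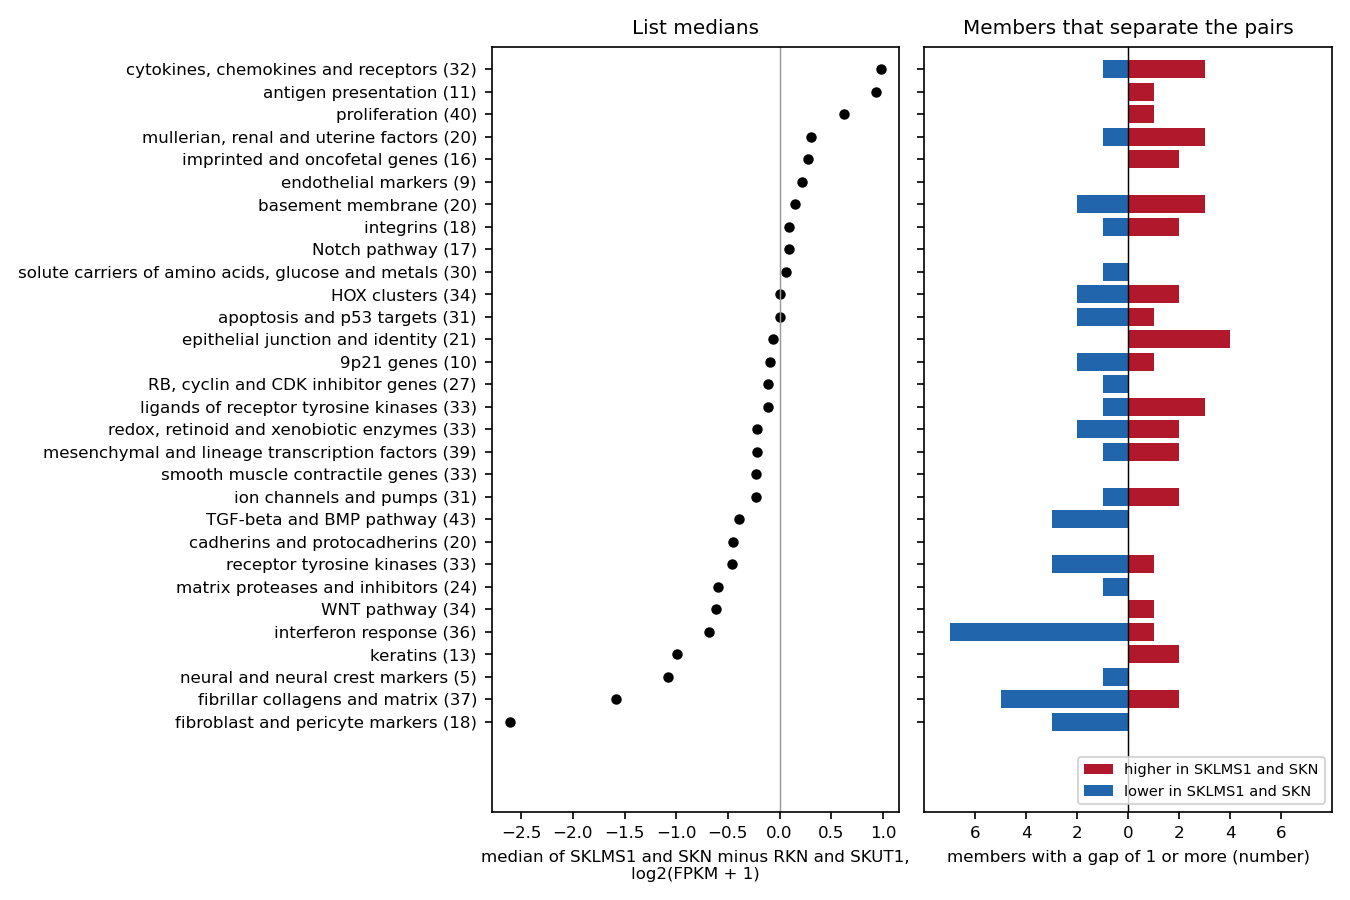
Gene lists with 5 or more measured members (number measured in brackets), ordered by the median difference of pair means, SKLMS1 and SKN minus RKN and SKUT1, on the log2(FPKM + 1) scale (left). On the right, bars give the number of members whose gap between the pairs was 1 or more, higher (red) or lower (blue) in SKLMS1 and SKN, with 7 lower members in the interferon response list as the longest bar.

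Of 33 lists examined, 14 held no gene that met the rule. The count of any list is to be read beside the 0.525% higher and 0.423% lower of all measured genes. Among these 14 were the smooth muscle contractile genes, of which none of 33 separated the pairs even with a gap of 1. ACTA2, smooth muscle actin, was at 127 in SKLMS1 and 1.37 in SKN, against 84.7 in RKN and 1084 in SKUT1. TAGLN was at 531 in SKLMS1 and 5.82 in SKN, against 45.5 in RKN and 3816 in SKUT1. Both had SKUT1 as the highest line and SKN as the lowest, an order that cuts across the pairs. The late markers MYH11 and DES did not exceed 1.15 in any line. Proliferation genes also gave none of 40, with 13 members higher by 1 or more in pair means and none lower by as much. Over all measured genes the shares were 9.39% and 9.74%. The summed FPKM of the proliferation genes was 3144 in SKLMS1 and 2811 in SKN, against 3606 in RKN and 835 in SKUT1. That list therefore followed SKUT1 and not the pair. Matrix proteases (24 measured), receptor tyrosine kinases (33) and cadherins (20) had no such gene either. Of the 130 genes, 35 belonged to at least 1 list and 95 to none.

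Markers of blood, endothelial and neural cells did not meet the rule, apart from NES. Of 16 blood cell markers 4 reached an FPKM of 1 in any line, and the summed level of these was 28.6 in SKLMS1 and 18.9 in SKN, against 5.95 in RKN and 78.7 in SKUT1. Of 13 endothelial markers 9 did, with sums of 5.66 in SKLMS1 and 106 in SKN, against 20.5 in RKN and 52.9 in SKUT1. Of 18 neural and neural crest markers 5 did, with sums of 137 in SKLMS1 and 28.98 in SKN, against 214 in RKN and 154 in SKUT1. Defining markers of these cells were at or near 0. PTPRC was at most 0.213 (SKUT1), PECAM1 at most 0.115 (SKUT1) and SOX10 at most 0.0154 (SKUT1), and TYROBP was listed at 0 in all 4 lines. Some markers reached an FPKM of 1 in single lines only. CSF1R, the receptor for macrophage colony-stimulating factor, was at 5.48 in SKLMS1 and 0.437 in SKN, against 0.0157 in RKN and 0.0324 in SKUT1. CSF1R kept the pairs apart with a gap of 0.477, short of the rule. KDR, a VEGF receptor, was at 4.91 in SKN.

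Sharing a direction did not mean sharing a level. Within the higher set, SKLMS1 exceeded SKN in 33 genes and SKN exceeded SKLMS1 in 27, and the median absolute difference between these lines was 0.99 on the log2 scale, beside 0.50 over all measured genes. Of the 60, 9 were 4-fold or more apart inside the pair, led by CD24 (5.90 higher in SKLMS1 on the log2 scale) and CLDN1 (2.89 higher in SKN). Within the lower set, RKN and SKUT1 had a median absolute difference of 0.59, beside 0.78 over all measured genes. In both sets the comparison with all measured genes is not like for like, since the rule chose the genes by these same values. RKN exceeded SKUT1 in 24 genes and SKUT1 exceeded RKN in 31, and 9 of the 55 were 4-fold or more apart. CDKN2A and GAL were higher in RKN by 4.23 and 3.97, and COL3A1, FBLN2 and THY1 were higher in SKUT1 by 4.20, 3.79 and 3.08. In the higher set, AKR1B1 and TSPAN13 were lower in RKN than in SKUT1, by -6.12 and -3.23 (RKN minus SKUT1). The low side of each set is compressed by the pseudocount, so differences near 0 on that side say little.

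**Figure D4:**
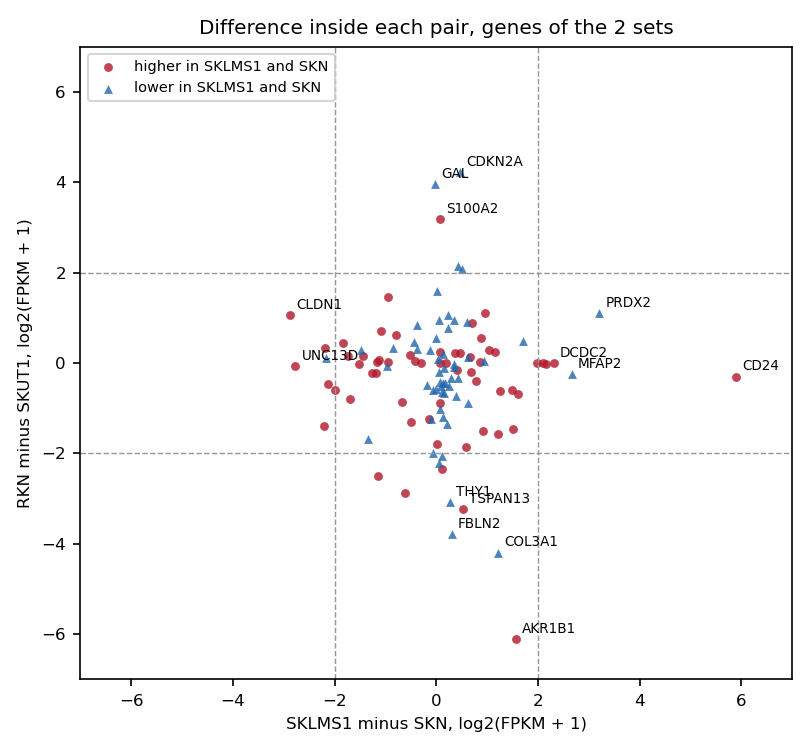
Differences inside the pairs on the log2(FPKM + 1) scale for the 60 higher (red circles) and 55 lower genes (blue triangles), SKLMS1 minus SKN on the horizontal axis and RKN minus SKUT1 on the vertical axis. Dashed lines mark 4-fold. Points far from the centre, such as CD24 at 5.90 and AKR1B1 at -6.12, had unequal levels in the lines of a pair.

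In chromosomal order, several of the genes lay side by side. Among the 13120 measured genes placed in RefSeq order, 7 pairs of the shared genes had at most 2 measured genes between them, and in 6 of these both genes ran the same way. The number expected from the density of the shared genes was not computed, so this count does not show clustering. COL3A1 and COL5A2 are adjacent on chromosome 2. UCN2 and COL7A1 are adjacent on chromosome 3. IFITM2 and IFITM1 are adjacent on chromosome 11. CDKN2A and CDKN2B on chromosome 9 are separated by CDKN2B-AS1. STAMBPL1 and FAS on chromosome 10 flank ACTA2, which did not separate the pairs because SKLMS1 was above RKN. CH25H, the next gene after FAS, was listed at 0 in SKLMS1 and SKN, against 2.38 in RKN and 1.78 in SKUT1. PDE4A and S1PR5 on chromosome 19 flank KEAP1, which was at 29.1 in SKLMS1 and 18.5 in SKN, against 51.3 in RKN and 40.4 in SKUT1. The seventh pair, FBLN1 and WNT7B on chromosome 22, ran in opposite directions. None of the flanking genes shown met the rule, for example WDR75 at 16.04 in SKLMS1 and 34.5 in SKN, against 43.6 in RKN and 18.8 in SKUT1, and UQCRC1 at 143 in SKLMS1 and 119 in SKN, against 126 in RKN and 84.2 in SKUT1. Some flanking genes, KEAP1 and CH25H among them, still kept the pairs apart by less. TFPI beside COL3A1 was at 50.7 in SKLMS1 and 51.4 in SKN, against 4.13 in RKN and 32.7 in SKUT1. Where neighbouring genes overlap, their reads cannot be told apart without the strand setting, so a shared pattern of neighbours can include shared reads.

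**Figure D5:**
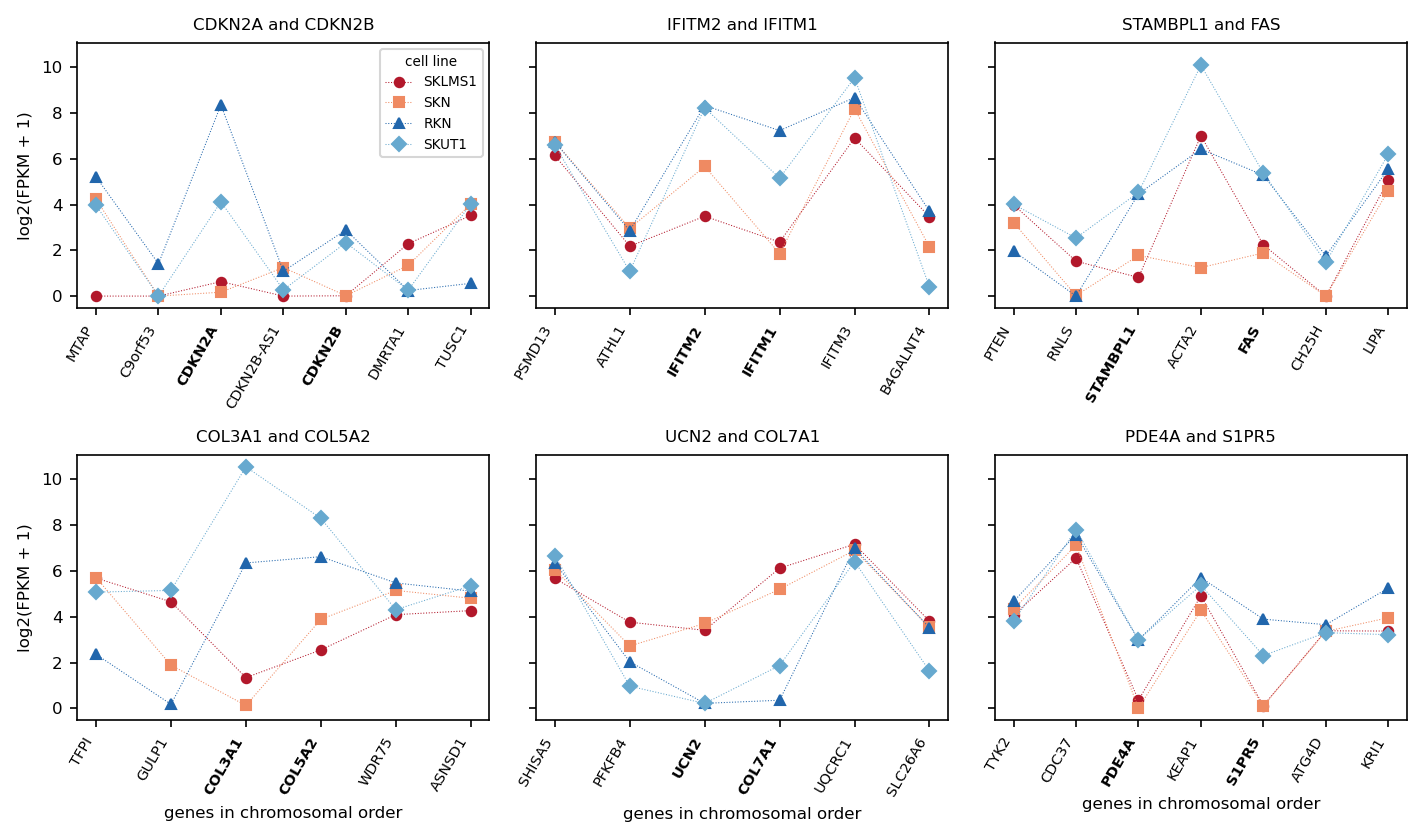
Levels on the log2(FPKM + 1) scale of 6 pairs of neighbouring shared genes (bold) with the measured genes on either side, in chromosomal order and without distances. Each symbol is 1 library, and dotted lines only join symbols of the same line. SKLMS1 and SKN lie apart from RKN and SKUT1 at the bold genes, which were chosen for this. They mix with RKN and SKUT1 at many others, but some, such as TFPI, LIPA and IFITM3, also keep the pairs apart by less.

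Genes at the edge of the rule show how narrow its border is. Just inside, with an FPKM of 10 or more in both lines of the higher pair, were ITGB3, NRP2 and RIPK4 among the higher genes and RPL9, CD97 and KRTAP2-3 among the lower. Just outside were SEMA4B at 70.9 in SKLMS1 and 90.2 in SKN, against 17.6 in RKN and 2.19 in SKUT1, PLGRKT at 63.2 in SKLMS1 and 71.3 in SKN, against 7.98 in RKN and 15.6 in SKUT1, and LETM2 at 11.7 in SKLMS1 and 17.1 in SKN, against 0.503 in RKN and 2.38 in SKUT1, with gaps of 1.95, 1.95 and 1.90. On the lower side ECM1 was at 6.53 in SKLMS1 and 1.93 in SKN, against 27.8 in RKN and 183 in SKUT1, SCARF2 at 1.52 in SKLMS1 and 4.75 in SKN, against 20.0 in RKN and 30.7 in SKUT1, and NAB2 at 11.5 in SKLMS1 and 8.78 in SKN, against 43.7 in RKN and 48.0 in SKUT1, with gaps of 1.93, 1.87 and 1.84. At a gap of 1, the sets grew to 241 higher (1.76%) and 201 lower genes (1.47%).

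The same rule applied to the other 2 pairings of the lines gave sets of like size. SKLMS1 and SKUT1 against RKN and SKN gave 152 genes, 118 higher and 34 lower, and SKN and SKUT1 against RKN and SKLMS1 gave 126, 78 higher and 48 lower. The pairing of SKLMS1 with SKN was therefore not the one with the most shared genes, and these counts carry no test.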

How the data were processed

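The deposited FPKM table of the 4 leiomyosarcoma lines was used as it stands. Per the submitters' processing notes the authors used STAR, Cufflinks and hg19, and per the labels' protocols libraries were made with a stranded mRNA kit and sequenced as single-end 75 bp reads. The sources used here give no versions, annotation, filters or strand setting. FPKM per the file headers are per gene symbol and line, 1 library each. Of 23610 rows, 28 whose symbols had become dates and 5 with spreadsheet errors were left out, and 13713 of 23577 genes had an FPKM of 1 or more in any line. Levels were compared as log2(FPKM + 1), which understates differences of low genes. FPKM keep no absolute depth, and with 1 library per line no test was made.

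The genes, lists and groups were chosen with earlier results of these data known. Genes were named by this rule: PAX8, KRT8 and CDKN2A, the 15 widest gaps in each direction among genes whose FPKM reached 10 in both lines of the higher pair, up to 5 members of each list and the 3 genes on either side of each threshold. All others were chosen after their values were seen, and 1 gene of the lower set is not reported here. Of the genes measured, 13397 (97.7%) matched RefSeq, which gave chromosome order and start windows. A comparison of CG content over start windows was void, since 61.1% of the higher and 72.4% of the lower genes had a window. Simulated lines with large uniform shifts and little noise checked only that the code applied the rule. They do not show how the rule performs on real lines. Python 3.11.15, numpy 2.4.6, pandas 2.3.3 and matplotlib 3.10.9 were used.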

Additional observations from a re-analysis of the deposited data

How the results depend on the processing

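The counts of 72 higher and 58 lower genes moved by over 1.5 times with a pseudocount of 0.1 (173 and 161), a pseudocount of 5 (21 and 17), an FPKM of 10 or more in both lines of the higher pair (42 and 32), a gap of 3 (20 and 15) and a gap of 1 (241 and 201). They were 103 and 83 on a common column sum, of which 72 and 55 were among the 72 and 58, and 70 and 57 with median-of-ratios scaling. The share of higher genes was 55.1% to 55.8% under these scalings and quantile normalization. Leaving out 1 line gave 220 to 346 higher and 124 to 685 lower genes, which is larger by construction, since fewer lines must pass: 302 and 171 without SKLMS1, 299 and 124 without SKN, 220 and 685 without RKN, and 346 and 282 without SKUT1. Of 495 gaps recomputed for the named genes, 460 stayed at 2 or more, 35 fell under 2, and 0 reversed. Leaving out 1 line or a pseudocount of 0.1 can only keep or widen a gap, so those gaps could not fall. With a pseudocount of 5, 30 of the 55 named genes fell under 2. On a common column sum 2 did, with median-of-ratios scaling 1, and with quantile normalization 2. No paired analysis was possible because each line has 1 library and the labels give no replicate numbers. Absolute depth is unknown, so no counting error can be given.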

Other observations

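The 15 short or unplaced RNAs of the sets mostly lie inside other genes, which did not meet the rule. MIR147B lies in C15orf48, which was at 12.7 in SKLMS1 and 3.19 in SKN, against 0.187 in RKN and 0.258 in SKUT1. MIR210 lies in MIR210HG, which was at 7.13 in SKLMS1 and 3.27 in SKN, against 0.621 in RKN and 1.48 in SKUT1. SNORD32A lies in RPL13A, which was at 327 in SKLMS1 and 1026 in SKN, against 362 in RKN and 346 in SKUT1. C15orf48 and MIR210HG were higher in SKLMS1 and SKN without reaching a gap of 2, and RPL13A was not.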
